A study of Mus musculus with 24 samples.

Results

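The collagen genes were taken as every row of the expression table whose symbol consists of Col, a number, the letter a and a number, that is, the genes for the alpha chains of the collagens. The rule gave 44 of 55938 genes and used no measured value. By class, 11 chains were fibrillar, 8 belonged to the basement membrane and 25 were placed under other. The last class held 9 chains of fibril-associated collagens with interrupted triple helices (FACIT), 6 of the beaded filament collagens, 3 of the network collagens VIII and X, 4 transmembrane collagens and 3 anchoring or remaining chains.

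RNA was sequenced from 12 mouse gliomas raised by transferring PDGFB, a growth factor for oligodendrocyte precursor cells (OPC), into the ventricle wall of the embryonic forebrain. Each tumour was dissected and dissociated, and fluorescent glioma cells and the non-fluorescent cells around them were sorted and sequenced apart, which gave 24 libraries in 6 groups of 4. Glioma and surrounding cells were both collected from asymptomatic animals at day 33 or 34 (tumours 3228A, 3228B, 3228D and 3229B), from early symptomatic animals between day 35 and day 50 (tumours 3108C, 3108D, 3109D and 3145A) and from late symptomatic animals between day 100 and day 175 (tumours 3054A, 3054B, 3054C and 3057E). The labels give no strain, sex or other allele, the surrounding cells of every group come from tumour-bearing brains, and no tumour-free brain was analysed here. Glioma cells of 3057E carry a red label and those of the other 11 tumours a green label. The labels state symptoms and days, and early and late were divided by letters in the labels. Stage, day and code prefix cannot be told apart.

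Collagens are trimers of alpha chains that are hydroxylated and folded in the endoplasmic reticulum, secreted, trimmed and crosslinked outside the cell. Fibrillar collagens form the fibrils of connective tissue, whereas type IV collagen forms the sheet-like network of basement membranes. In the healthy brain fibrillar collagen is largely restricted to meninges and vessel walls, where fibroblasts, pericytes and smooth muscle cells make it, and the main sites of basement membrane are the vessels and the pial surface. FACIT collagens decorate fibrils or serve at cell surfaces and synapses.

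Totals ran from 9075510 to 15471149 counts per library, and levels are given as CPM, read counts relative to library size after trimmed-mean scaling. As a check of the sort, 9 of 12 OPC markers were higher in glioma than in surrounding cells, beside 22% of all tested genes. Their sum was 11285 to 18873 CPM in glioma cells and 699 to 13511 CPM in surrounding cells. All 10 microglia markers were lower in glioma cells, beside 24.2% of all tested genes. Tumour 3057E stood apart, because the microglia sum of its glioma library was 1981 CPM while 3054A, 3054B and 3054C had 118 to 141 CPM, and that of its surrounding library 1724 CPM, against 10568 to 15331 CPM in the other late surrounding libraries. Xist, transcribed from the inactive X chromosome, was at 1591 CPM in the glioma and 2.08 CPM in the surrounding library of 3108D, and at 1.89 CPM in the glioma and 1079 CPM in the surrounding library of 3109D, so these libraries go against the pairing in their labels. The main counts are therefore also given without 3057E. Calls lost without 3108D and 3109D are given as a count in early tumours and named for some of the chains only.

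All collagens together came to 438, 765 and 3671 CPM in glioma cells (lowest, median and highest of 12) and to 348, 1326 and 5403 CPM in surrounding cells. The totals overlapped widely, but their makeup differed. In glioma cells the fibrillar class held a median of 63.8% of collagen counts, the basement membrane class 13.8% and the other class 20.7%. In surrounding cells the medians were 43.5%, 34.9% and 19.6%. Col11a1 alone accounted for 31.7% to 74.3% of collagen counts in glioma cells and for 2.26% to 41.5% in surrounding cells.

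**Figure D1:**
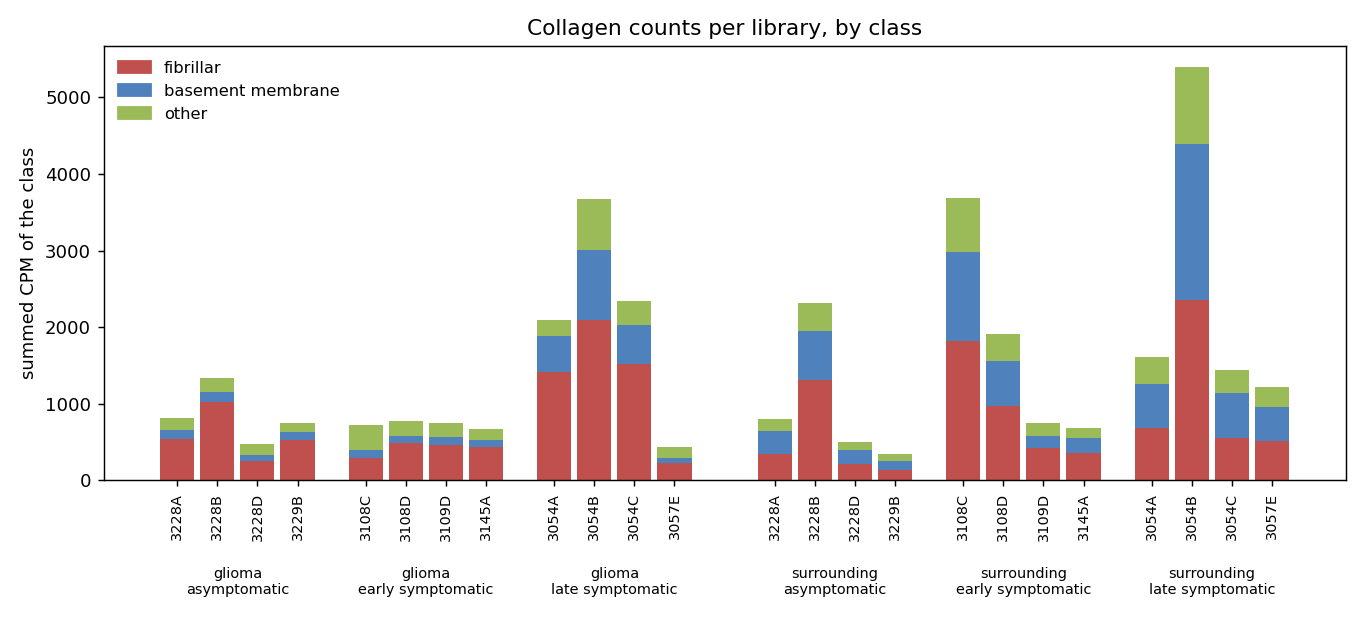
Summed CPM of the fibrillar, basement membrane and other collagens in each library, with glioma libraries on the left and surrounding libraries on the right, each ordered by stage. The sums are not scaled by gene length. Gliomas 3054A, 3054B and 3054C reach 2089.7 to 3671 CPM over all collagens and glioma 3057E 438 CPM, whereas surrounding libraries of the same stage run from 1212.5 to 5403 CPM.

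Per kilobase of exon, which allows genes to be compared, the leading chains of glioma cells by their median level were Col11a1 at 37.0, Col16a1 at 9.51, Col4a1 at 7.54, Col19a1 at 6.78 and Col9a3 at 4.98 CPM per kb. Surrounding cells were led by Col4a1 at 29.6, Col4a2 at 19.9, Col1a1 at 16.5 and Col11a1 and Col3a1 at 13.5 CPM per kb. In glioma cells Col18a1 had a median of 2.69 but a mean of 17.6 CPM per kb, which rested on 3 late tumours.

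Glioma and surrounding cells were compared over all stages with edgeR's quasi-likelihood test on 38 collagens that passed the filter on low counts, and genes with an adjusted p under 0.05 are called. The 6 chains that did not pass were Col6a4, Col6a5, Col6a6, Col17a1, Col22a1 and Col28a1, with 7 to 170 counts each over all 24 libraries. Of the 38, 20 were lower and 5 higher in glioma cells, beside 24.2% of all 18810 tested genes lower and 22% higher. The 20 include Col5a2, Col7a1, Col8a1, Col8a2, Col10a1, Col13a1 and Col14a1, which did not pass the filter within the 12 glioma libraries and entered through the surrounding libraries, where they are high, so that they had to differ. Col2a1 and Col4a3 also did not pass within the 12 glioma libraries and were not called over all stages. Without 3057E, 24 were lower and 6 higher, beside 27.4% and 23.7% of 19254 genes. The median log2 fold change was -1.37 for the collagens and 0.06 for all genes. By class, 7 of 11 fibrillar chains fell and 1 rose, 3 of 8 basement membrane chains fell, and 10 of 19 tested chains of the other class fell and 4 rose. In bulk samples, fewer cells of a type and less RNA per cell cannot be told apart.

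**Figure D2:**
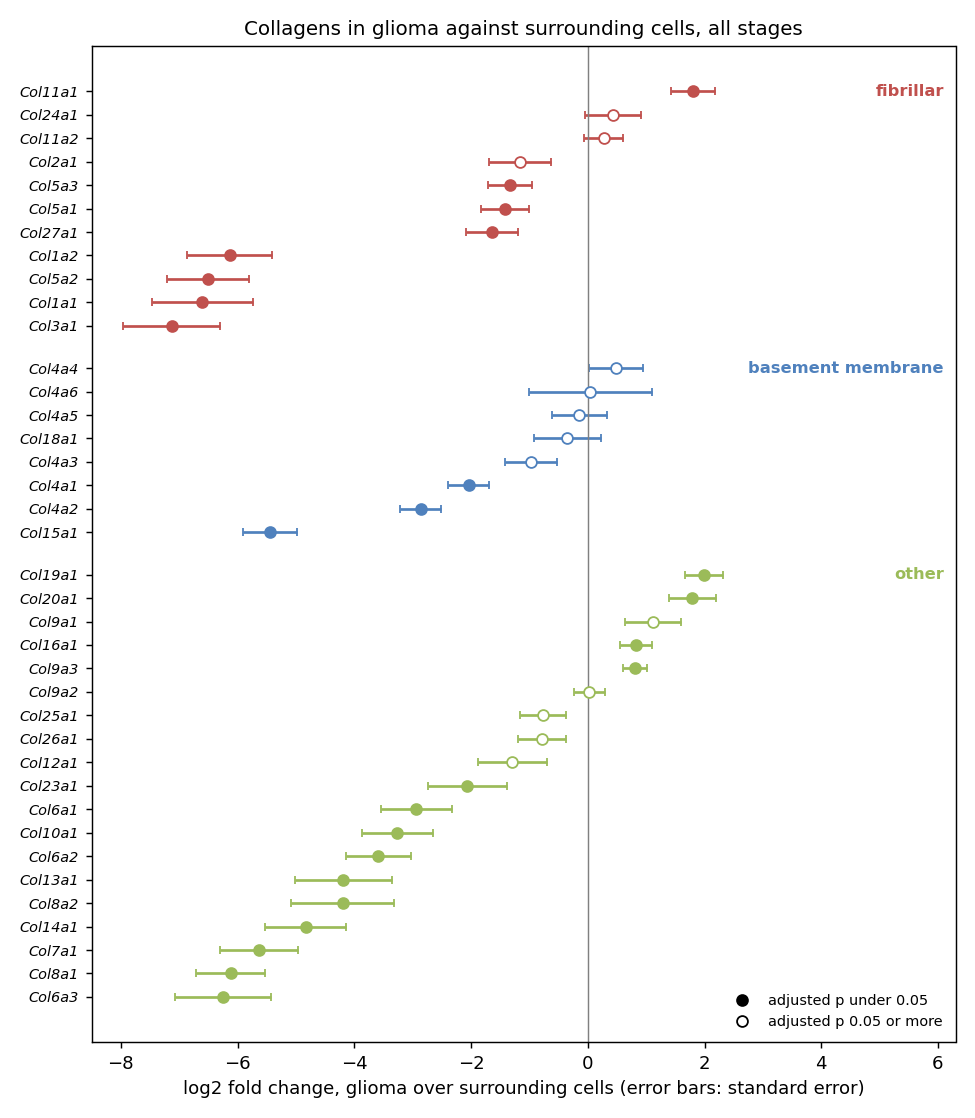
Log2 fold change of glioma over surrounding cells across all stages for the 38 tested collagens, grouped by class, with standard errors as bars, filled points for adjusted p under 0.05 and open points for the rest. Col3a1 lies farthest to the left at -7.13, Col19a1 farthest to the right at 1.99, and 4 of the 5 chains that rose are FACIT collagens.

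The chains of type I and type III collagen were lower in every glioma library than in any surrounding library. Col1a1, the alpha 1 chain of type I collagen, had 0.239, 1.04 and 3.72 CPM in glioma cells (lowest, median and highest of 12) and 4.97, 108 and 639.7 CPM in surrounding cells. Its partner chain Col1a2 had 0.319, 1.66 and 3.83 CPM in glioma cells and 5.54, 94.9 and 484 CPM in surrounding cells. Every glioma library lay below every surrounding library for both genes. The log2 fold change was -6.60 ± 0.87 (SE) for Col1a1, with an adjusted p of 2.05e-06, and -6.13 ± 0.73 for Col1a2, with an adjusted p of 5.36e-07.

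Col3a1, the chain of type III collagen, which accompanies type I in vessel walls, had 0.150, 0.678 and 3.74 CPM in glioma cells and 12.4, 132 and 551 CPM in surrounding cells. The populations did not overlap, and Col3a1 fell by 7.13 ± 0.83 on the log2 scale (adjusted p = 4e-07). Col5a2, a chain of the type V collagen that starts type I fibrils and among those that had to differ, fell by 6.50 ± 0.70 (adjusted p = 1.45e-07). Its partner Col5a1 fell by 1.42 ± 0.42 (adjusted p = 0.00799), and was called in 17 of 19 alternative settings. Among the losses was the fit with the tumour code as a block (adjusted p = 0.0601). Col5a1 kept 6.37 to 18.1 CPM in glioma cells, where Col5a2 had at most 1.09 CPM. Col5a3 and Col27a1 also fell, by 1.33 ± 0.38 and 1.64 ± 0.44.

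The promoters of Col3a1 and of Col11a1, the chains with the lowest and the highest fold change of the fibrillar class, are shown from RefSeq on GRCm38.p6, as 250 bases before to 50 bases after the start of the gene, 5′ to 3′ on its own strand. Capitals mark the motifs searched on either strand, namely CCAAT, read as ATTGG from the opposite strand, the GC box GGGCGG, read there as CCGCCC, and the TATA motif TATAAA, read there as TTTATA. No motif contains another. Of all 32851 RefSeq promoters of this length, 37.4% hold a CCAAT, 35.7% a GC box and 13.6% a TATA motif. Col3a1 lies on the forward strand at chr1:45311288-45311587, with 37.7% G or C and 1 TATA motif, and Col11a1 on the forward strand at chr3:114030290-114030589, with 62.3% G or C, 1 CCAAT and 2 GC boxes.
Col3a1: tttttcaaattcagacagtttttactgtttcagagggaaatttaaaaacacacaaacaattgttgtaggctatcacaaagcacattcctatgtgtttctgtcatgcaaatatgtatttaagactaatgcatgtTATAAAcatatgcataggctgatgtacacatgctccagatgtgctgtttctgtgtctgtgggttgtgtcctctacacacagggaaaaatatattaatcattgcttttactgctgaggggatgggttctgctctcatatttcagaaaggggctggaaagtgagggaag
Col11a1: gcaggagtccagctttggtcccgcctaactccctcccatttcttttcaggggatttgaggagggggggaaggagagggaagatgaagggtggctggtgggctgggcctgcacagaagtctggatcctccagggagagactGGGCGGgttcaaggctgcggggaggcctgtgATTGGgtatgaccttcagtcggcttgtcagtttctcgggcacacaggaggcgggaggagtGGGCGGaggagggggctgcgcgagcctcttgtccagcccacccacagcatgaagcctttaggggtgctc

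Surrounding libraries varied far more in these chains than glioma libraries. Col1a1 had 11.4, 259.7, 4.97 and 11.5 CPM in the asymptomatic surrounding libraries of 3228A, 3228B, 3228D and 3229B. The early libraries of 3108C, 3108D, 3109D and 3145A had 513, 171, 28.0 and 5.78 CPM, and the late libraries of 3054A, 3054B, 3054C and 3057E had 165, 639.7, 134 and 82.5 CPM. In each stage 1 surrounding library was highest, namely 3228B, 3108C and 3054B, and the same libraries were highest for Col3a1, Col1a2 and Col4a1. They also had the highest sums of the 9 fibroblast markers within their stages, at 248, 416 and 363 CPM, against 18.1 to 289 CPM in the other 9 surrounding libraries. Their sums of the 12 pericyte and smooth muscle markers, 169.6, 248 and 458 CPM, lay beside 62.1 to 198 CPM in those 9.

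Over both populations, 8 of 8 tested fibroblast markers and 9 of 10 tested pericyte and smooth muscle markers were lower in glioma cells. Of all tested genes, 24.2% were lower. The fibroblast sum was 1.43 to 8.03 CPM in glioma cells and 18.1 to 416 CPM in surrounding cells. The pericyte sum was 4.14 to 41.2 CPM in glioma cells and 62.1 to 458 CPM in surrounding cells. In a glioma library 1 to 5 of the 9 fibroblast markers had no count, and in a surrounding library 0 to 2. Markers so low in glioma cells could pass the filter through the surrounding libraries alone, and any that did had to differ. The part of these markers in the collagen differences was not tested.

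**Figure D3:**
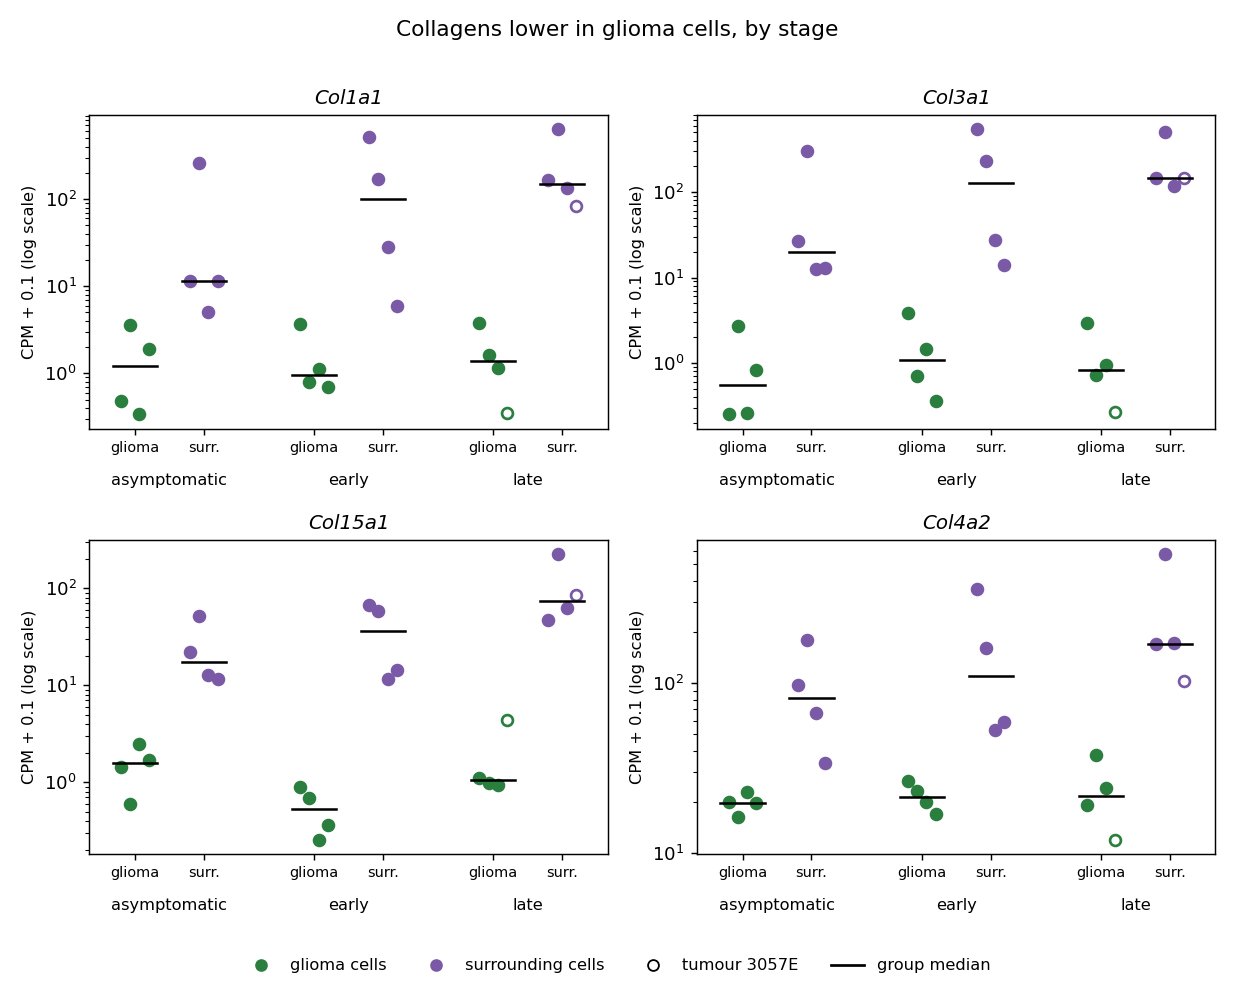
CPM with 0.1 added, on a log axis, for Col1a1, Col3a1, Col15a1 and Col4a2 in each library, with glioma left of surrounding cells within each stage, group medians as bars and tumour 3057E as open circles. The glioma libraries of Col1a1, Col3a1 and Col15a1 all lie below the surrounding libraries, whereas Col4a2 stays between 11.9 and 37.7 CPM in glioma cells.

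Of the fibrillar class, Col11a1 went the other way. Col11a1, a chain of type XI collagen, which is best known from cartilage, had 169, 472 and 2043 CPM in glioma cells and 49.8, 172 and 416 CPM in surrounding cells. It was higher in the glioma library of all 12 tumours, also with the surrounding libraries of 3108D and 3109D exchanged, a pattern that 10.9% of all tested genes shared. The ranges of the populations overlapped. Col11a1 rose by 1.80 ± 0.38 on the log2 scale (adjusted p = 5.45e-04). Col11a2, another type XI chain, had a log2 fold change of 0.27 ± 0.33, with an adjusted p of 0.526 (chosen after its values were seen).

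Among basement membrane chains, Col15a1 showed the strongest fall. Col15a1 encodes the core of a proteoglycan that links basement membranes to the fibrils beneath them. It had 0.158, 0.864 and 4.30 CPM in glioma cells and 11.6, 49.5 and 225 CPM in surrounding cells. The populations did not overlap, and Col15a1 fell by 5.44 ± 0.47 (adjusted p = 8.79e-09).

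The main type IV chains were lower in glioma cells but were not lost. Col4a1 had 30.9, 56.3 and 116 CPM in glioma cells and 59.5, 221 and 961 CPM in surrounding cells. Col4a2 had 11.9, 19.8 and 37.7 CPM in glioma cells and 33.8, 132 and 574 CPM in surrounding cells. Both were lower in the glioma library of all 12 tumours, although the ranges overlapped. Col4a1 fell by 2.04 ± 0.35 (adjusted p = 6.45e-05) and Col4a2 by 2.86 ± 0.35 (adjusted p = 8.29e-07). The ratio of Col4a1 to Col4a2 per kb was 1.70 to 3.60 in glioma cells and 1.24 to 1.56 in surrounding cells, so the populations did not overlap in it. Of the endothelial markers, which vessel cells carry, 11 of 12 were lower in glioma cells, beside 24.2% of all tested genes. Their sums were 6.71 to 138 CPM in glioma cells and 94.4 to 312 CPM in surrounding cells. Of these 12 markers, 0 to 5 had no count in a glioma library and none in a surrounding library, and their part in the type IV difference was not tested.

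Type IV genes sit in head-to-head pairs, and the promoters of Col4a1 with Col4a2 and of Col4a5 with Col4a6 are shown because Col4a1 and Col4a2 fell together and Col4a5 and Col4a6 were high in the same late gliomas, as described further on. Build, window, motifs and capitals are as above. Col4a1 lies on the reverse strand at chr8:11312777-11313076 and Col4a2 on the forward strand at chr8:11312555-11312854. Their starts are 21 bases apart and the windows share 78 bases. Col4a5 lies on the forward strand at chrX:141475169-141475468 and Col4a6 on the reverse strand at chrX:141474027-141474326, with starts 1343 bases apart. The windows of Col4a1 and Col4a2 had 74.0% and 73.7% G or C, and those of Col4a5 and Col4a6 52.7% and 48.3%. Col4a1 and Col4a5 had 1 CCAAT and 1 GC box each, Col4a2 1 CCAAT and 3 GC boxes, and Col4a6 1 GC box.
Col4a1: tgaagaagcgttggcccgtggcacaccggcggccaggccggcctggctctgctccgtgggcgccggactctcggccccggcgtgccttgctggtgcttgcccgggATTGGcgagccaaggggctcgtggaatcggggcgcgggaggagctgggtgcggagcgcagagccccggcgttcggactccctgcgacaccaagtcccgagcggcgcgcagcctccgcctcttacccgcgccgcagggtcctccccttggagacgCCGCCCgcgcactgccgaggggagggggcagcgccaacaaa
Col4a2: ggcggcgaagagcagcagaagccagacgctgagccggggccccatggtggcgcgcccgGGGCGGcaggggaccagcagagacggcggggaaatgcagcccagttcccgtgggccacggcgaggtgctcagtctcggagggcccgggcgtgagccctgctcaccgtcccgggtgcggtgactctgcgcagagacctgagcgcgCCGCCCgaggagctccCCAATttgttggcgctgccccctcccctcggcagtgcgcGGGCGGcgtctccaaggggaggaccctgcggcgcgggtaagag
Col4a5: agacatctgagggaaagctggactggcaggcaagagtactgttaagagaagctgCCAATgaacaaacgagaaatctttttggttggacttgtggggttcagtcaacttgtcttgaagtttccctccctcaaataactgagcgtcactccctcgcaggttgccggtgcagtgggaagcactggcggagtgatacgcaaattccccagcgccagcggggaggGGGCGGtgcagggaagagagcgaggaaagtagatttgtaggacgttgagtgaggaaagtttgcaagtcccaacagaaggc
Col4a6: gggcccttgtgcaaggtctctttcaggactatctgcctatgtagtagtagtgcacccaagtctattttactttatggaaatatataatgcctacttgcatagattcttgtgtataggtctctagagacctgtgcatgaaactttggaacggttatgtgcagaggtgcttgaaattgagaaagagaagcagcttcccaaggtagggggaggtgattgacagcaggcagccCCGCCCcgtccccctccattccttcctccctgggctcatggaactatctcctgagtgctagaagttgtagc

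The other 5 basement membrane chains were not called over all stages. Col18a1, whose carboxyl end is released as endostatin, had 0.876, 18.9 and 633 CPM in glioma cells and 5.97, 62.3 and 260.4 CPM in surrounding cells. The glioma libraries thus held both the lowest and the highest values, and the log2 fold change was -0.35 ± 0.58 (adjusted p = 0.646).

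Within the other class, the 3 beaded filament chains tested, of 6, all fell. Col6a3, the large chain of type VI collagen, had 0, 0.634 and 3.74 CPM in glioma cells and 4.51, 38.6 and 298 CPM in surrounding cells, with no overlap. It fell by 6.24 ± 0.82 (adjusted p = 2.15e-06). Col6a1 had 0.239, 2.64 and 46.4 CPM in glioma cells and 3.45, 26.2 and 121.1 CPM in surrounding cells. Col6a1 was lower in the glioma library of all 12 tumours, and fell by 2.94 ± 0.61 (adjusted p = 4.46e-04), and Col6a2 fell by 3.59 ± 0.55 (adjusted p = 1.73e-05).

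Of the tested chains, all 3 network collagens, 2 of 3 transmembrane collagens and 1 of 2 anchoring or remaining chains fell, and Col25a1 and Col26a1 were not called. Among those that fell, Col7a1, Col8a1, Col8a2, Col10a1 and Col13a1 passed the filter only through the surrounding libraries, so that they had to differ. Col8a1, a network collagen of vessel walls, had 0, 0.344 and 1.25 CPM in glioma cells and 4.45, 32.5 and 149 CPM in surrounding cells, and fell by 6.12 ± 0.59 (adjusted p = 3.48e-08). Col7a1, the anchoring fibril collagen, had 0, 0.283 and 0.507 CPM in glioma cells and 0.271, 14.6 and 89.98 CPM in surrounding cells, and fell by 5.63 ± 0.67 (adjusted p = 5.4e-07). The libraries of Col8a1 did not overlap, whereas those of Col7a1 did. In all, 7 collagens had every glioma library below every surrounding library (Col1a1, Col1a2, Col3a1, Col5a2, Col6a3, Col8a1 and Col15a1), beside 5.58% of all tested genes. Of these, Col5a2 and Col8a1 passed the filter only through the surrounding libraries, so that they had to differ. Col8a2 and Col10a1 of the network collagens and Col13a1 and Col23a1 of the transmembrane collagens also fell. Col23a1 lost its call without 3054B (adjusted p = 0.0521), without 3229B (adjusted p = 0.0510) and without 3108D and 3109D together (adjusted p = 0.0582).

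FACIT collagens made up 4 of the 5 chains that rose. Col19a1, which is expressed by neurons and takes part in synapse formation in the mouse, had 17.2, 46.7 and 64.1 CPM in glioma cells and 1.47, 11.3 and 19.5 CPM in surrounding cells. It rose by 1.99 ± 0.33 (adjusted p = 4.21e-05). Col20a1 had 12.3, 24.9 and 354 CPM in glioma cells and 2.80, 10.9 and 38.8 CPM in surrounding cells. Col20a1 rose by 1.79 ± 0.40 (adjusted p = 1e-03). Both were higher in the glioma library of all 12 tumours, although the ranges met. With the surrounding libraries of 3108D and 3109D exchanged, Col20a1 was higher in 11 of 12. None of the 5 chains that rose had every glioma library above every surrounding library, which 0.728% of all genes did.

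Col16a1, a minor collagen tied to fibrils and cell adhesion, had 29.6, 64.2 and 141 CPM in glioma cells and 10.3, 40.9 and 62.0 CPM in surrounding cells. It rose by 0.83 ± 0.27 (adjusted p = 0.0167) and lost its call without 3108D and 3109D together (adjusted p = 0.0623). Col9a3, a chain of type IX collagen, had 10.9, 19.2 and 53.3 CPM in glioma cells and 5.34, 13.7 and 20.8 CPM in surrounding cells, and rose by 0.81 ± 0.20 (adjusted p = 0.00230). Up to 6.07% of the exon bases of Col9a3 overlap Tcfl5, and the strand setting of the counting is not given in the sources used here. Col14a1, among the chains that had to differ, was the FACIT chain that fell, by 4.83 ± 0.70 (adjusted p = 7.01e-06).

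**Figure D4:**
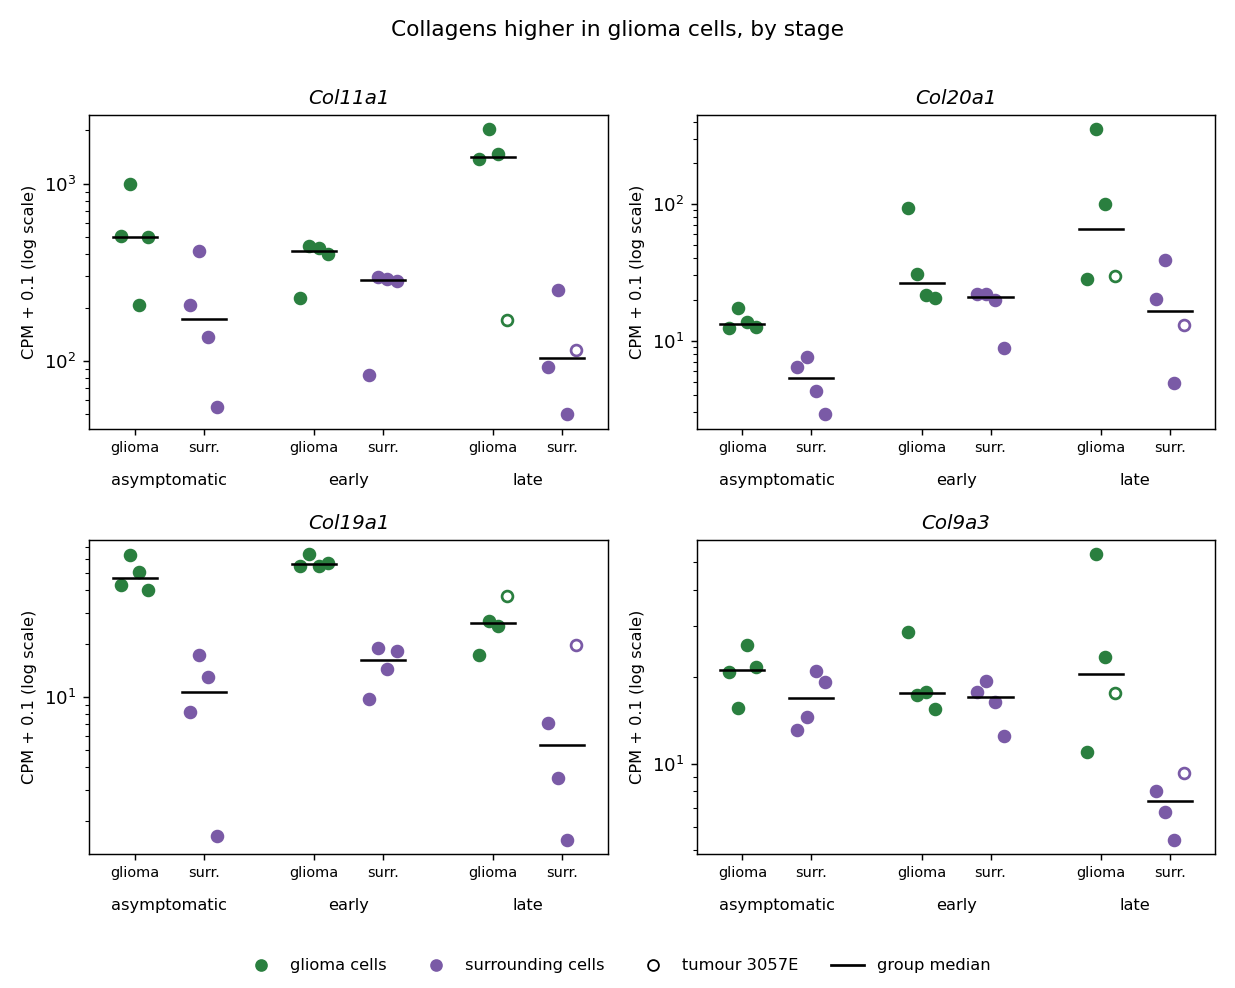
CPM with 0.1 added, on a log axis, for Col11a1, Col20a1, Col19a1 and Col9a3 in each library, drawn as glioma left of surrounding cells within each stage, with group medians as bars and tumour 3057E as open circles. Glioma medians lie above surrounding medians in each stage for all 4 genes, and the late gliomas 3054A, 3054B and 3054C reach 1376 to 2043 CPM of Col11a1 but 17.2 to 26.7 CPM of Col19a1.

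The same contrast was then read stage by stage. In asymptomatic tumours 14 of 38 collagens were lower in glioma cells and 1 was higher, beside 12.5% and 1.3% of all genes. In early symptomatic tumours 14 were lower and 1 higher, beside 12.4% and 1.06% of all genes. In late symptomatic tumours 17 were lower and 6 higher, beside 19.9% and 15.4% of all genes, and without 3057E 18 were lower and 7 higher, beside 23.3% and 19.5%. The asymptomatic count was 9 of either direction without 3228A and 5 without 3228B, and the early count was 7 without 3108D and 3109D.

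Called lower in all 3 stages were 10 chains, namely Col1a1, Col1a2, Col3a1, Col4a2, Col5a2, Col6a3, Col7a1, Col8a1, Col14a1 and Col15a1. Of these, Col5a2, Col7a1, Col8a1 and Col14a1 passed the filter only through the surrounding libraries, so that they had to differ. Without 3228B, Col1a1, Col4a2, Col5a2, Col6a3, Col7a1 and Col14a1 were not called in asymptomatic tumours, with adjusted p of 0.0736 to 0.299. Without 3228A this held for Col4a2, Col7a1 and Col14a1, with adjusted p of 0.0574 to 0.0777, and without 3228D for Col14a1 (adjusted p = 0.0514). In early tumours Col14a1 was not called without 3108C or 3108D (adjusted p = 0.0764 and 0.0576). Without 3108D and 3109D together, Col1a1, Col6a3 and Col14a1 were not called there, with adjusted p of 0.0765 to 0.153. With the tumour code as a block, Col7a1 and Col14a1 were not called in asymptomatic tumours (adjusted p = 0.0721 and 0.0955). The 1 chain called higher in all 3 stages was Col19a1, with log2 fold changes of 2.31 ± 0.58 in asymptomatic, 1.92 ± 0.57 in early and 1.75 ± 0.57 in late tumours. In early tumours the call of Col19a1 was lost without each of 3108C, 3108D, 3109D and 3145A, with adjusted p of 0.0754 to 0.131, without 3108D and 3109D together (adjusted p = 0.253) and with no count filter (adjusted p = 0.0637). It was lost in late tumours without each of 3054A, 3054B and 3054C, with adjusted p of 0.0559 to 0.106.

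In late tumours Col11a1, Col20a1, Col9a1, Col9a3 and Col16a1 joined it. Col11a1 had 1376, 2043, 1472 and 169 CPM in the late gliomas 3054A, 3054B, 3054C and 3057E, against 92.8, 251, 49.8 and 115 CPM in their surrounding cells. Gliomas 3054A, 3054B and 3054C lay above all other gliomas, of which 3228B came nearest with 993 CPM, and 3057E stayed near the surrounding cells. The log2 fold change was 3.31 ± 0.70 (adjusted p = 0.00101). Col20a1 had 28.2, 354, 100.5 and 29.6 CPM in these gliomas and 20.0, 38.8, 4.83 and 13.0 CPM in their surrounding cells, which is 2.74 ± 0.72 on the log2 scale (adjusted p = 0.00522). The late increase of Col9a3 was 1.85 ± 0.36 (adjusted p = 4.81e-04). Col9a1 rose by 2.51 ± 0.82 (adjusted p = 0.0212) and Col16a1 by 1.45 ± 0.48 (adjusted p = 0.0238). Col9a1 lost its call without each of 3054A, 3054B and 3054C, with adjusted p of 0.0763 to 0.0889. Col16a1 was called in 16 of 19 alternative settings, and its losses include those without 3054B or 3054C (adjusted p = 0.147 and 0.126).

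Whether the difference between populations changed with stage was tested as an interaction. No collagen and no gene passed the adjustment in any of the 3 interactions (0% of 18810 genes), with 290, 1585 and 1167 genes at an unadjusted p under 0.05 for early minus asymptomatic, late minus asymptomatic and late minus early. DESeq2 called 1, 18 and 43 genes. Without 3057E, 2 collagens were called in each interaction that involved late tumours. These were Col5a3 (-3.24 ± 0.92, adjusted p = 0.0347) and Col9a3 (1.79 ± 0.52, adjusted p = 0.0391) for late minus asymptomatic, beside 7.45% of all genes. For late minus early they were Col5a3 (-3.62 ± 0.92, adjusted p = 0.0292) and Col4a5 (3.95 ± 1.01, adjusted p = 0.0297), beside 4.51% of all genes.

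Within glioma cells, no collagen of 29 tested passed the test between stages, beside 0% of 16494 genes for early minus asymptomatic, 0.158% for late minus asymptomatic and 0.273% for late minus early. DESeq2 called 9 collagens in each of the contrasts with late tumours, where it called 578 genes in all for late minus asymptomatic and 989 for late minus early. The 15 chains below the filter in glioma cells included Col2a1, Col5a2, Col7a1 and Col8a1. The late gliomas were split, because the levels of 3057E were unlike those of 3054A, 3054B and 3054C. This choice was made after the levels were seen, so the adjusted p without 3057E are not independent support for the split. With any other single tumour left out, no collagen was called in either late contrast.

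Col18a1 had 338, 633, 343 and 10.9 CPM in the late gliomas 3054A, 3054B, 3054C and 3057E. It had 9.70, 15.4, 19.9 and 9.999 CPM in early gliomas and 18.2, 63.2, 0.876 and 19.6 CPM in asymptomatic gliomas. These first 3 tumours lay above every other glioma, and 3057E lay among the earlier stages. Late minus early was 4.58 ± 1.15 on the log2 scale in all libraries (adjusted p = 0.0954) and 4.97 ± 0.90 without 3057E (adjusted p = 0.00534).

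The X-linked type IV chains showed the same split. Col4a5 had 19.4, 60.3, 31.3 and 1.08 CPM in the late gliomas 3054A, 3054B, 3054C and 3057E, and 0.398 to 5.88 CPM in the 8 other gliomas. Col4a6 had 8.79, 65.4, 10.8 and 0.579 CPM in the late gliomas and 0 to 2.94 CPM in the others. The 3 high tumours were the same for both genes. Xist was high in 3054A and 3054B, at 988 and 480.2 CPM, and low in 3054C, at 1.06 CPM.

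Without 3057E, 11 of 30 tested collagens rose and 3 fell in late over asymptomatic gliomas, beside 7.19% and 7.5% of 16937 genes. In late over early gliomas 9 rose and 3 fell, beside 8.58% and 8.61%. The 9 that rose in both were Col2a1, Col4a1, Col4a5, Col4a6, Col6a1, Col6a2, Col9a1, Col11a1 and Col18a1. Col2a1 passed the filter only without 3057E, through 31, 37 and 44 counts in 3054A, 3054B and 3054C, against 0 to 8 counts in the other gliomas, so that it had to differ. In this fit Col4a6 passed only through its 104, 731 and 142 counts in these 3 tumours, so that it also had to differ. Col4a6 had 0 to 35 counts in the 8 earlier gliomas. By class for late over asymptomatic, 4 of 7 basement membrane, 2 of 10 fibrillar and 5 of 13 other chains rose. Tumour 3057E was collected at day 100, and 3054A, 3054B and 3054C at day 120 or 175. Day, label colour and code prefix cannot be told apart in this split. These 3 late tumours share a code prefix, so prefix and stage cannot be told apart, and the 2 contrasts share the late libraries. Their endothelial marker sums were 17.7, 138 and 86.9 CPM, against 6.71 to 67.3 CPM in the 8 earlier gliomas, and most of the sum of 3054B was Flt1 at 116 CPM. Their fibroblast sums, 4.14 to 8.03 CPM, lay beside 1.43 to 6.42 CPM in the earlier gliomas. Sums of astrocyte markers were lower and did not overlap, at 853 to 969 CPM in these 3 tumours and 1570.4 to 2511 CPM in the earlier gliomas. The same held for neuron markers, at 52.6 to 85.8 and 90.4 to 272 CPM, and microglia markers, at 118 to 141 and 147 to 656 CPM. The part of these markers was not tested.

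The largest changes without 3057E in late over early gliomas were those of Col4a6, which had to differ (6.86 ± 1.24, adjusted p = 0.00498), Col18a1 and Col4a5 (4.41 ± 0.67, adjusted p = 0.00177). Col6a1 had 14.4, 46.4 and 19.9 CPM in 3054A, 3054B and 3054C and 0.414 CPM in 3057E, against 1.10 to 3.74 CPM in early gliomas, and rose by 3.32 ± 0.59 without 3057E (adjusted p = 0.00373). Col6a3 did not follow it, with 0.455 to 1.18 CPM in the 4 late gliomas and 0 to 3.74 CPM in the early ones. Col4a1 rose by 0.78 ± 0.19 (adjusted p = 0.0140) and Col11a1 by 2.09 ± 0.41 (adjusted p = 0.00604).

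Col19a1 moved against this group. It had 17.2, 26.7, 25.2 and 37.3 CPM in late gliomas, against 54.8, 64.1, 55.0 and 57.0 CPM in early gliomas, with no overlap. Late minus early was -1.11 ± 0.22 in all libraries (adjusted p = 0.0585) and -1.35 ± 0.20 without 3057E (adjusted p = 0.00121). Col26a1 and Col5a3 were the other 2 that fell without 3057E in late over early gliomas.

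**Figure D5:**
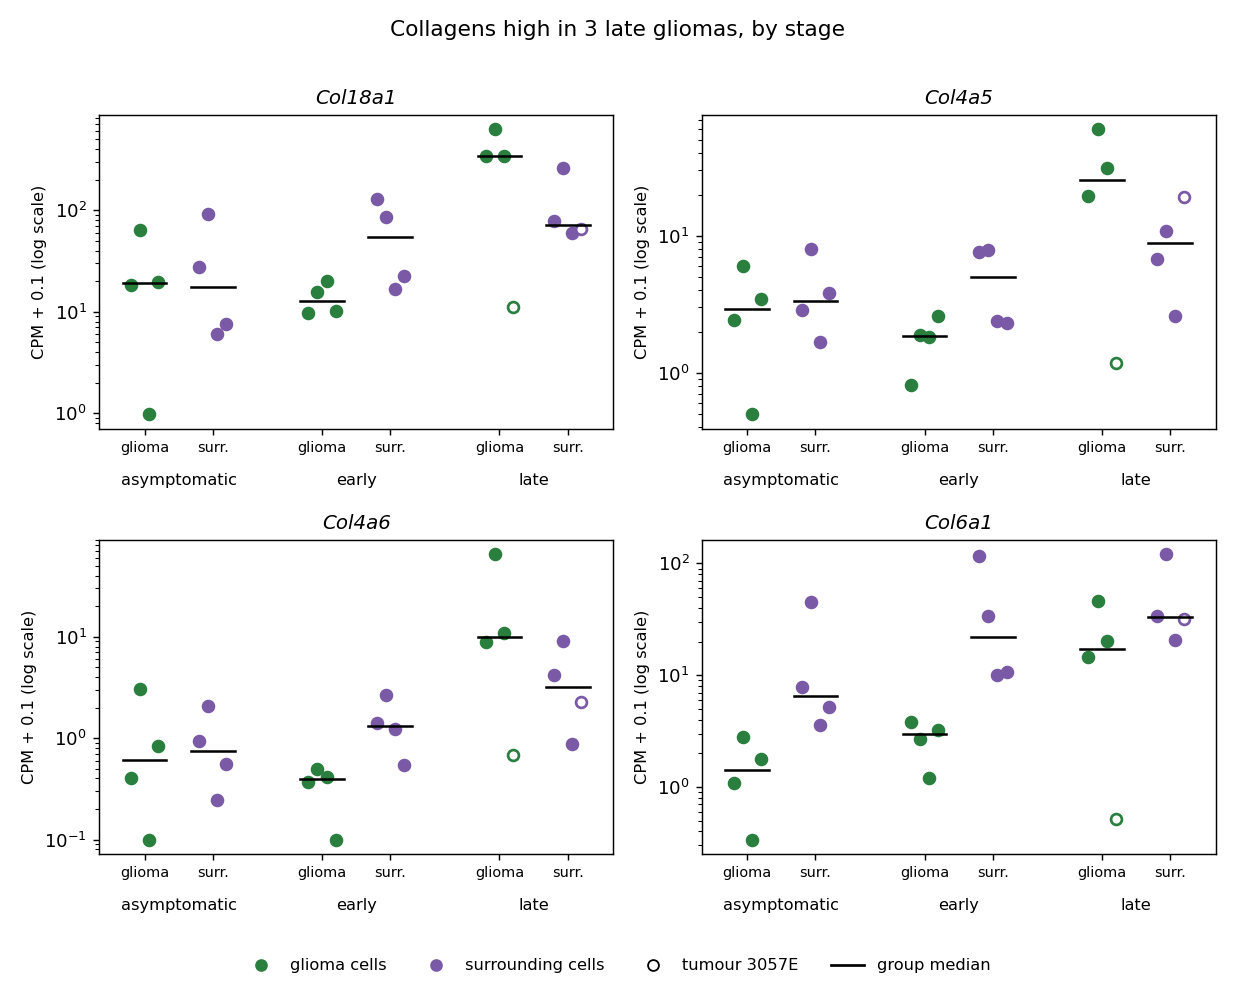
CPM with 0.1 added, on a log axis, for Col18a1, Col4a5, Col4a6 and Col6a1 in each library, drawn as glioma left of surrounding cells within each stage, with group medians as bars and tumour 3057E as open circles. In late gliomas 3 libraries lie above all earlier gliomas for each gene, and the open circle of 3057E lies at 10.9, 1.08, 0.579 and 0.414 CPM.

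Within surrounding cells 1 collagen of 38 was called between stages. Col9a3 had 7.91, 6.67, 5.34 and 9.13 CPM in late and 17.6, 19.3, 16.2 and 12.4 CPM in early surrounding cells, with no overlap. It fell by 1.21 ± 0.27 (adjusted p = 0.0457), beside 0.0681% of 17616 genes lower and 1.41% higher. This call was lost in each fit that left out 1 tumour other than 3057E, with adjusted p of 0.0538 to 0.158, and without 3108D and 3109D together (adjusted p = 0.515). In the same libraries of 3054A, 3054B, 3054C and 3057E the OPC marker sum was 3807, 2598, 699 and 10911 CPM, against 6150.3 to 12704 CPM in early surrounding cells. The astrocyte marker sum was 993, 533, 257 and 1832 CPM in late and 1512 to 2507 CPM in early surrounding cells. The part of these markers was not tested. No collagen was called for late or early minus asymptomatic surrounding cells, where no gene passed the adjustment, 2822 and 645 genes had an unadjusted p under 0.05, and DESeq2 called 1002 and 10 genes. For late minus asymptomatic 5 of DESeq2's calls were collagens.

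Without 3057E, Col14a1 rose by 3.61 ± 0.91 in late over early surrounding cells (adjusted p = 0.0193), where 9.18% of genes rose and 9.7% fell. Col14a1, a FACIT chain of connective tissue, had 60.2, 33.2, 74.6 and 3.86 CPM in the late surrounding libraries of 3054A, 3054B, 3054C and 3057E, against 8.50, 5.35, 2.55 and 1.60 CPM in the early ones. The late values other than 3057E lay above every other surrounding library. In late over asymptomatic surrounding cells Col12a1, Col14a1 and Col20a1 rose and Col9a3 fell without 3057E, beside 7.58% and 8.83% of genes.

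The 64 genes listed for making, crosslinking, sensing and degrading collagen were read in the same fits. Over all stages 35 of 62 tested genes were lower and 8 higher in glioma cells, beside 24.2% and 22% of all genes. The 35 include Tll2, Ctsk, Fap, Mmp8, Mmp9 and Mmp13, which did not pass the filter within the glioma libraries other than 3057E. They entered through the surrounding libraries, where they are higher, so that they had to differ. Lamc3, Adamts2, P4ha3 and Loxl4 did not pass in those glioma libraries either, so a fall of these carries the same limit. Of the enzymes and chaperones that modify and fold collagen, 11 of 21 fell and 3 rose. Serpinh1, the collagen chaperone HSP47, had 0, 1.94 and 3.41 CPM in glioma cells and 19.7, 74.5 and 237 CPM in surrounding cells, with no overlap, and fell by 5.57 ± 0.52 (adjusted p = 2.45e-08). Plod1, a lysyl hydroxylase, and Colgalt1, a collagen galactosyltransferase, fell by 1.35 ± 0.20 and 1.01 ± 0.15. Col11a1 had at least 169 CPM in the glioma libraries, in which Serpinh1 had at most 3.41 CPM.

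Extracellular processing and crosslinking genes fell in 7 of 13 and rose in 2. Sparc, a secreted collagen-binding protein, had 25.6, 111 and 362 CPM in glioma cells and 299, 1137 and 2339 CPM in surrounding cells, and fell by 3.37 ± 0.30 (adjusted p = 1.41e-08). Lox, a lysyl oxidase that crosslinks fibrils, fell by 2.48 ± 0.33. The procollagen protease gene Tll2, among those that had to differ, fell by 3.68 ± 0.58. All 7 genes of collagen degradation fell, led by Ctsk, Mmp9 and Mmp8. Of the 7, Ctsk, Fap, Mmp8, Mmp9 and Mmp13 are among those that had to differ. Among basement membrane partners 8 of 12 fell, led by the laminin chains Lama2 and Lamb1 and the nidogen Nid2. The laminin chain Lamc3, with the limit given above, had 0 to 0.803 CPM in glioma and 1.93 to 23.8 CPM in surrounding cells. Agrn, the proteoglycan agrin, rose by 0.70 ± 0.18.

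Receptors were divided. Mrc2, an endocytic collagen receptor, and Lair1, an inhibitory receptor of immune cells, fell by 4.43 ± 0.32 and 4.93 ± 0.60. The collagen-activated kinases Ddr1 and Ddr2 rose by 0.59 ± 0.17 (adjusted p = 0.00689) and 0.65 ± 0.20 (adjusted p = 0.0110). Ddr2 lost its call without 3229B (adjusted p = 0.0516). Ddr1 had 90.1, 132 and 175 CPM in glioma cells and 28.2, 94.6 and 160.3 CPM in surrounding cells, so the ranges overlapped.

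Between stages of glioma cells Lox was the pathway gene called. It had 7.52, 17.0, 16.5 and 7.61 CPM in late gliomas, against 1.33, 0.894, 0.868 and 1.18 CPM in early gliomas. No late library, 3057E included, overlapped an early one. Lox rose by 3.49 ± 0.39 in late over early gliomas (adjusted p = 0.00772) and by 2.28 ± 0.36 in late over asymptomatic gliomas (adjusted p = 0.0317). The first call was lost without 3108D and 3109D together (adjusted p = 0.115). The second was lost in 9 of the 12 fits that left out 1 tumour, those without 3054A, 3057E and 3145A excepted, with adjusted p of 0.0506 to 0.117. Without 3057E, 17 of 52 pathway genes rose and 1 fell in late over early gliomas, beside 8.58% and 8.61% of all genes. The 17 include the low-count genes P4ha2 and Itga2, which passed the filter only through 3054A, 3054B and 3054C, so that they had to differ. P4ha2 had 3.80 to 5.81 CPM in these libraries and 0 to 0.588 CPM in the 8 earlier gliomas. Itga2 had 1.36 to 4.56 CPM and 0 to 0.592 CPM. Others were Loxl2 (3.86 ± 0.47), the prolyl hydroxylase subunit P4ha1 (1.77 ± 0.26), the lysyl hydroxylase Plod2 (2.02 ± 0.25) and Hspg2, the basement membrane proteoglycan perlecan (2.08 ± 0.27), named after their values were seen. In surrounding cells Mmp2, a gelatinase, was the pathway gene called in late over early tumours, with 84.7, 68.5, 90.3 and 52.6 CPM in late and 39.5, 28.9, 22.8 and 28.5 CPM in early libraries and a log2 fold change of 1.27 ± 0.27 (adjusted p = 0.0410). This call was lost in 9 of the 12 fits that left out 1 tumour, those without 3057E, 3108C and 3229B excepted, with adjusted p of 0.0539 to 0.143, and was lost without 3108D and 3109D together (adjusted p = 0.502) and with all 24 libraries in 1 fit (adjusted p = 0.289).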

How the data were processed

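RNA of sorted glioma and surrounding cells was sequenced from 12 tumours as total RNA-seq libraries made from poly(A) RNA, per the labels' protocols. The authors deposited estimated counts per gene, and per the submitters' processing notes STAR 2.7.5c and RSEM 1.3.1 were run, with genome build GRCm38. The annotation release and strand setting are not given in the sources used here, so reads of overlapping or antisense genes cannot be told apart. The estimated counts were rounded to whole numbers. Groups come from the labels, and the same tumour code in both populations marks 1 animal. P-values of contrasts between stages measure the spread between the animals of a population. Those of contrasts between populations and of interactions measure the spread between libraries within groups. The main fits hold no term for the tumour, so libraries of the same animal count as independent there.

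Genes were kept with edgeR's filterByExpr at a minimum count of 10, scaled by trimmed means and tested with edgeR 4.0.16's quasi-likelihood test (R 4.3.3), with group means as terms and Benjamini-Hochberg adjustment over all genes tested. Contrasts between populations and interactions used all 24 libraries, and contrasts between stages the 12 of a population. The standard error is the absolute log2 fold change over the root of F. Levels per kb use the exon union of GENCODE M21. Scripts were tested on simulated data.

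Members and lists were chosen with earlier results of these data known. Values were given for Col1a1, Col1a2, Col3a1, Col4a1, Col4a2, Col6a1, Col6a3 and Col18a1, for up to 4 called chains per class and direction with the smallest p, for chains higher in glioma cells, and for up to 3 called pathway genes per role. Agrn, Ddr2 and other names outside this rule were chosen after their values were seen. The alternatives were DESeq2 1.42.0, its size factors, other count filters, a fold limit, fits without single tumours or without 3108D and 3109D, 1 fit of all libraries, and a replicate block. Same-code libraries deviated together in asymptomatic tumours (r of 0.258 to 0.415 across genes), and those of late tumours less so (0.084 to 0.303). In early tumours those of 3108C and 3145A deviated together (0.413 and 0.332). Those of 3108D and 3109D did not (0.037 and -0.0019), whereas glioma 3108D with surrounding 3109D gave 0.370 and glioma 3109D with surrounding 3108D 0.259. The block comes from the labels' codes and its values stand beside the calls it ended.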

Additional observations from a re-analysis of the deposited data

Results flagged for a closer look

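Within each group of 4 libraries, the gap between the highest or lowest library and its nearest neighbour was compared with the whole range on the log2 scale, for 16 collagens and 4 class sums. Of 120 sets checked, 7 held a library that stood apart, and chance gives about 1 in 20. Tumour 3057E gave 2 of them, with 10.9 CPM of Col18a1 in its glioma library, where 3054A, 3054B and 3054C had 338 to 633 CPM, and 169 CPM of Col11a1, against 1376 to 2043 CPM. Tumour 3108C gave 2 for Col11a1, with 227 CPM in its glioma library, beside 403 to 445 CPM in 3108D, 3109D and 3145A, and 83.3 CPM in its surrounding library, against 281 to 298 CPM. The other 3 were in surrounding cells. Col3a1 had 506 CPM in late 3054B, against 118 to 146 CPM in the others, Col16a1 had 10.3 CPM in late 3054C, against 33.7 to 41.2 CPM, and Col20a1 had 8.72 CPM in early 3145A, against 19.7 to 22.0 CPM. The causes were not tested.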

How the results depend on the processing

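Over 138 gene-level results and 2551 alternatives, 2379 kept their direction and side of the threshold, 119 lost the call, 53 gained one and none changed sign. The count of called collagens in early tumours was 7 without 3108D and 3109D. In glioma cells late minus asymptomatic gave 1 call with no count filter and 9 with DESeq2, and late minus early gave 1 with no filter, 2 with all 24 libraries in 1 fit and 9 with DESeq2. In surrounding cells late minus asymptomatic gave 5 with DESeq2, and late minus early gave 0 with no filter, 0 without 3108D and 3109D, 0 with all 24 libraries and 2 with DESeq2. Leaving out 1 tumour gave 25 to 30 calls over all stages, 5 to 15 in asymptomatic, 10 to 15 in early and 18 to 25 in late tumours. It gave 0 to 14 for late minus asymptomatic and 0 to 12 for late minus early in glioma cells, 0 to 4 and 0 to 2 in surrounding cells, and 0 to 2 in either late interaction. With the replicate block by tumour code the counts were 26 over all stages, 13 in asymptomatic, 15 in early and 25 in late tumours, and 27, 13, 15 and 26 with the surrounding libraries of 3108D and 3109D exchanged. It gave 0 calls in the interactions. The block ended the calls named in the report and no other. DESeq2's size factors moved the median of all genes by -0.10 on the log2 scale in late tumours. The stage contrasts rest on 4 tumours a group, and chains under the filter in glioma cells could not be compared at this depth. Causes of these changes were not tested.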
